A study of Homo sapiens with 6 samples.

Results

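ATOX1, the gene of a copper chaperone, and TFRC, the gene of transferrin receptor 1, were compared between control Caco-2 cells and Caco-2 cells put through hypoxia and then reoxygenation (H/R). They were chosen by name, together with the ferritin genes FTH1 and FTL, the metallothionein genes MT1E, MT1F, MT1G, MT1X and MT2A, and CP, which encodes ceruloplasmin. Of these 10 genes, 2 were held in the deposited table, among 2206 distinct rows. The other 8 were not analysed here, and their absence says nothing about whether they changed, because the rows look selected as changed. In 92.3% of the distinct rows whose group means both exceeded 0, these means differed at least 2-fold.

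Poly(A) RNA was sequenced from 3 control samples and 3 H/R samples of Caco-2 cells. This human line, grown from a colorectal adenocarcinoma, stands in for the intestinal epithelium, and it is 1 tumour line without the other cells of the gut wall. All 6 samples carried the genotype WT, and the groups differed in the treatment, control or hypoxia/reoxygenation. The study's methods mention siRNA for its H/R Caco-2 cells, and the sample labels name no transfection. Whether the groups differed in it was not tested. The sources used here give neither how long the sequenced cells were reoxygenated nor whether replicates were grown as separate cultures. The p-values therefore cover only the spread among these 6 samples, which may be technical. Levels are in FPKM, fragments scaled by transcript length and by the mapped fragments of the library, and the sequencing depth is unknown. Of 10 epithelial markers, 3 were in the table (ALPI, KRT20 and SI), so the labelled cell type could be checked only in part. ALPI, an intestinal alkaline phosphatase, fell from 33.2 ± 3.72 to 15.3 ± 1.90 FPKM. KRT20 (0.323 and 1.54 FPKM in control and H/R) and SI (1.38 and 0.480 FPKM) were under the minimum mean of 1 FPKM and were not tested. Markers of other cell types in the table were 2 of 5 fibroblast genes (COL1A1, 15.6 to 7.08 FPKM from the control to the H/R mean, and PDGFRA, 7.98 to 23.2), 1 of 4 immune genes (CD14, 13.4 to 5.44) and 1 of 4 endothelial genes (ESAM, 3.80 to 9.14). They changed in both directions, and their part in the results below was not tested.

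Copper and iron are needed by many enzymes and are harmful when free, so cells move them bound to proteins. ATOX1 takes copper in the cytosol and hands it to the copper-pumping ATPases of the secretory pathway, ATP7A and ATP7B, while a separate chaperone, CCS, loads copper into the superoxide dismutase SOD1. Transferrin receptor 1 brings iron into the cell by taking up iron-loaded transferrin, and ferritin stores what is not used. When iron is scarce, the iron regulatory proteins bind hairpins in messenger RNAs, called iron-responsive elements, which protects the TFRC transcript from decay and holds back the translation of ferritin. In the intestine, enterocytes take dietary iron at the apical side and transferrin-bound iron at the basal side. TFRC is also known as a target of the hypoxia-inducible factors.

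The iron-responsive elements are shown because they are the feature by which TFRC messenger RNA is tied to iron. Each was searched on the transcript strand of the GENCODE protein-coding transcripts (GRCh38) as a C, 5 bases, the loop CAGTGN, and 5 bases that pair with the first 5, with G-T pairs allowed. TFRC had 4 such sites, all in its 3′ UTR on the minus strand of chromosome 3, and the ferritin genes, which the table does not hold, had 1 each in the 5′ UTR. An element whose stem or loop departs from this pattern would be missed, so these are not counts of all elements in a gene. Sites were also listed for SLC40A1, TF and ACO1, and ACO1 had none. SLC40A1, which encodes the iron exporter ferroportin and is not in the table, had 1 in the 5′ UTR. TF, the transferrin gene, had 1 in the 3′ UTR of an annotated transcript, at base 16641, while its protein-coding transcripts have a median length of 659 bp. The level of TF fell after H/R, opposite to TFRC, and whether it came from transcripts with this match was not tested. Capitals mark the loop.
TFRC site 1 (chr3:196050985-196051001): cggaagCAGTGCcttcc
TFRC site 2 (chr3:196050581-196050597): cgggagCAGTGTcttcc
TFRC site 3 (chr3:196050516-196050532): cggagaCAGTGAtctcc
TFRC site 4 (chr3:196050469-196050485): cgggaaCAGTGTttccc
FTH1 (chr11:61967580-61967596, minus strand): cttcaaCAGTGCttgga
FTL (chr19:48965341-48965357, plus strand): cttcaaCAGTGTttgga
A match was found in 1.48% of 19669 protein-coding genes and in 1.61% of the 1869 tested genes that could be searched, and TFRC was the 1 gene of those 19669 with at least 4 matches. Of the 30 tested genes with a match, 14 rose and 16 fell after H/R, close to the 46.1% and 52.9% of all rows tested. ATOX1 had no match, which says only that these letters are not in its transcripts.

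The promoter of TFRC is shown because it holds the core letters of a hypoxia response element, ACGTG. Whether these letters bear on the rise of TFRC was not tested. The 250 bases before the RefSeq start (GRCh38.p14, chr3:196082091-196082340, minus strand) hold ACGTG once, in capitals here, with its first base 88 bases before the start.
TFRC promoter: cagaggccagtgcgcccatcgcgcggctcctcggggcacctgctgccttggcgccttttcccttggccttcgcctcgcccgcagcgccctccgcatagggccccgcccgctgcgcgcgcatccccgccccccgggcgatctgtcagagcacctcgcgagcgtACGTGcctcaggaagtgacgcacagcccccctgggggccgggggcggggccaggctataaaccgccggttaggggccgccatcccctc
On both strands, ACGTG occurred in 18.5% of 35116 RefSeq promoters of this length and the alternative core GCGTG in 32.2%, and ATOX1 had neither. The letters TGCGCNC, 1 form of the metal response element bound by MTF1, occurred 3 times in the TFRC promoter, overlaps between strands included, and 2 times in that of ATOX1, against a share of 16.8% of all promoters with at least 1. The other form, TGCACNC, was in neither promoter and in 9.87% of all. A match is not a site of binding, and none was measured.

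ATOX1 fell after H/R. The control libraries 1, 2 and 3 held it at 205.83, 234.78 and 220.44 FPKM, and the H/R libraries 1, 2 and 3 at 53.78, 43.22 and 18.35 FPKM. The groups were far apart, with the lowest control sample above the highest H/R sample, as were those of 52.0% of all rows tested, and H/R replicate 3 stood below the other H/R samples. The mean went from 220.35 ± 14.5 to 38.45 ± 18.2 FPKM (SD, n = 3 per group), a level 5.73-fold lower. On the log2(FPKM + 1) scale the difference, H/R minus control, was -2.62 ± 0.33 (SE, limma, adjusted p = 1.16e-04), and 52.9% of all rows tested fell by the same rule. In bulk RNA, fewer cells with a transcript and less of it per cell cannot be told apart. Rescaling each library by the median of its ratios, which shifted H/R against control by 0.52 on the log2 scale, gave a difference of -2.10, and leaving out H/R replicate 3 gave -2.17. RefSeq places the antisense gene ATOX1-AS1 over ATOX1, and no source used here states that reads were counted by strand, so reads of these genes cannot be told apart.

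TFRC rose after H/R, with more spread between replicates than ATOX1 had in control. The control libraries 1, 2 and 3 held it at 47.57, 76.39 and 132.68 FPKM, and the H/R libraries 1, 2 and 3 at 137.81, 209.88 and 258.74 FPKM. The groups did not overlap, with H/R above control as in 42.6% of all rows tested, but the highest control sample lay just under the lowest H/R sample. The mean went from 85.5 ± 43.3 to 202.1 ± 60.8 FPKM (SD, n = 3 per group), a level 2.36-fold higher. The difference on the log2(FPKM + 1) scale was 1.31 ± 0.35 (SE, limma, adjusted p = 0.00478), and 46.1% of all rows tested rose by the same rule. With an ordinary linear model, which does not borrow the spread from other rows, the call ended (adjusted p = 0.0638), and over the 16 alternatives the adjusted p went from 8.44e-05 to 0.0638. Median-of-ratios scaling gave a difference of 1.82 and leaving out control replicate 1 gave 0.95.

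**Figure D1:**
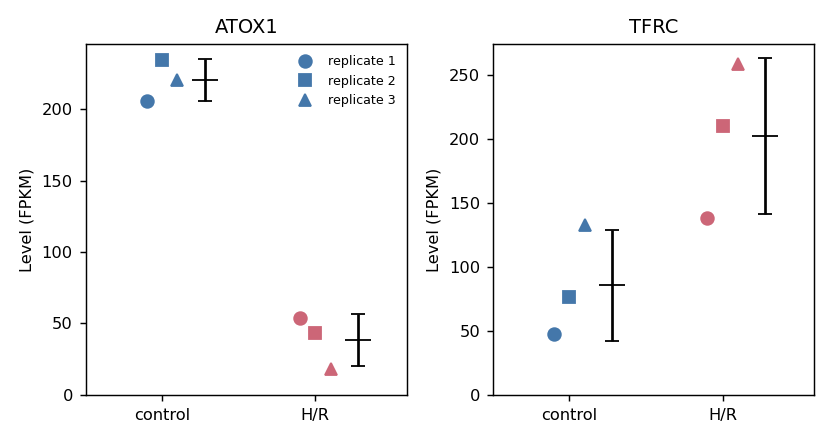
Level of ATOX1 (left) and TFRC (right) in FPKM, with 1 point per sample, the marker shape giving the replicate number, and the black bar and whiskers giving the mean and SD of each group (n = 3). All ATOX1 values of H/R samples (18.35 to 53.78 FPKM) lie below those of control samples, whereas the TFRC groups nearly touch at 132.68 and 137.81 FPKM.

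Passing the test was the rule in this table and not particular to either gene. The rows look selected as changed between these same groups, so all adjusted p-values given here carry no known error rate. Of the 2034 rows with a mean of at least 1 FPKM, 46.1% rose and 52.9% fell (limma, adjusted p under 0.05), 99.0% in all, and the groups did not overlap in 94.6%. The size of the change differed between them. On the log2(FPKM + 1) scale, that of ATOX1 was the 8th largest fall of 1076, and that of TFRC the 349th largest rise of 937. The rank of ATOX1 depends on the pseudocount, which makes changes of low genes look smaller. With a pseudocount of 0.1, HP (-3.25), TMPRSS6 (-3.00) and HPX (-2.73), described below, fell further than ATOX1 (-2.65). The median change was -1.17 among rows that fell and 1.19 among rows that rose. Both genes were less precisely measured than most rows, with an SE above that of 93.9% of rows for ATOX1 and 96.8% for TFRC, where the median SE was 0.22 on the log2 scale. In control, ATOX1 was more abundant than 94.2% of tested rows and TFRC than 85.4%, and after H/R these shares were 73.6% and 95.8%.

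**Figure D2:**
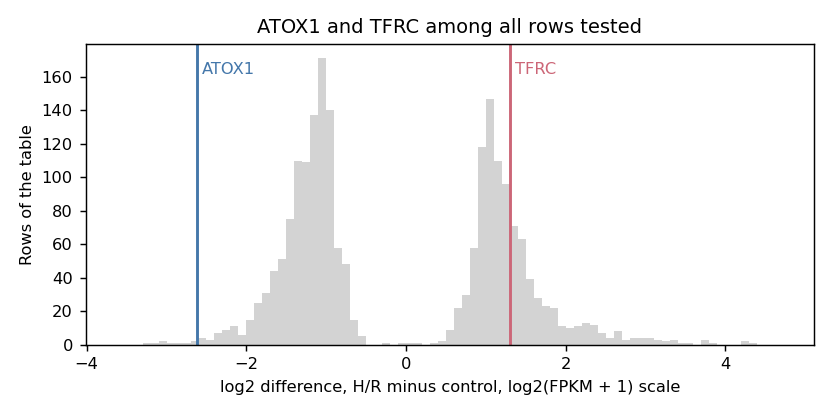
Histogram of the change after H/R, as a difference of mean log2(FPKM + 1) values, over the 2034 rows tested, in bins of 0.1, with lines at ATOX1 and TFRC. ATOX1 (-2.62) stands in the far left tail, TFRC (1.31) stands within the bulk of the rises, and few rows lie near 0.

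Ratios of 2 genes within a library are untouched by any scaling that uses 1 factor per library. Quantile normalization, and library effects that differ between genes, can still move them. The 4 ratios given here were chosen after the values were seen. ATOX1 exceeded TFRC in each control sample, with ratios of 4.33, 3.07 and 1.66, and was below it in each H/R sample, with ratios of 0.390, 0.206 and 0.0709. The order of these genes in level thus turned over in all 3 H/R libraries. ATOX1 was 2.42, 2.97 and 3.09 times the level of CCS, the other cytosolic copper chaperone, in control and 1.19, 1.12 and 0.523 times in H/R, a log2 difference between groups of -1.67 in this ratio. TFRC was compared with HFE, whose product binds transferrin receptor 1, and with ACO1, which encodes iron regulatory protein 1. The ratio of TFRC to HFE was 2.98, 4.51 and 7.55 in control and 29.4, 34.5 and 44.8 in H/R, and that of TFRC to ACO1 was 0.896, 0.963 and 1.52 in control and 5.01, 5.50 and 7.81 in H/R. Each of the 4 ratios separated the groups without overlap. Each had an exact permutation p of 0.1 (two-sided, on log2 ratios, n = 3 per group, also 0.1 after adjustment over the 4), the smallest that 3 against 3 samples allow. In each ratio with TFRC, the 2 genes alone already separated the groups, in opposite directions. The separation of those ratios and its p were thus fixed in advance and test nothing further. The ratio of ATOX1 to CCS was picked with both falls known, -2.62 for ATOX1 and -0.97 for CCS on the log2 scale. Its p thus adds no independent support.

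**Figure D3:**
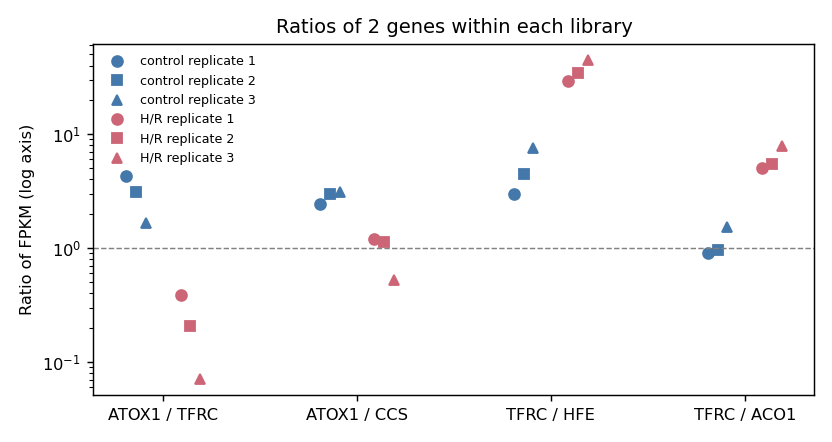
Ratio of the FPKM of 2 genes within each library on a log axis, with blue for control, red for H/R and the marker shape for the replicate number, and a dashed line where both genes have the same level. The ratio of ATOX1 to TFRC lies above 1 in the 3 control libraries and below 1 in the 3 H/R libraries.

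The libraries of a group differed along the GC content of the transcripts, and TFRC differed between them as well. In control, rows deviated from the group mean by 0.26, -0.0016 and -0.26 on the log2 scale per 10 points of GC in replicates 1, 2 and 3, and in H/R by 0.16, -0.031 and -0.13. TFRC deviated from its group mean by -0.71, -0.039 and 0.75 in the control replicates and by -0.50, 0.10 and 0.40 in the H/R replicates. In both groups the library with the steepest positive slope had the lowest TFRC value and the one with the steepest negative slope the highest. TFRC transcripts have a GC content of 42.1% and a length of 4923 bp (medians over GENCODE protein-coding transcripts), against medians of 47.4% and 2229 bp for rows that rose. For ATOX1, with 52.8% and 657.5 bp against 57.1% and 1410.5 bp for rows that fell, the deviations were -0.096, 0.093 and 0.0026 in control and 0.60, 0.29 and -0.90 in H/R. The slopes were taken over these selected rows, where rows that rose had a lower median GC than rows that fell. A difference between libraries along GC and one in how far a library had changed thus cannot be told apart here. Without both replicates numbered 1, the difference of TFRC was 1.20 and that of ATOX1 was -2.97, and without both numbered 3 they were 1.48 and -2.17, alternatives chosen after the data were seen, each with an adjusted p under the threshold in limma.

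**Figure D4:**
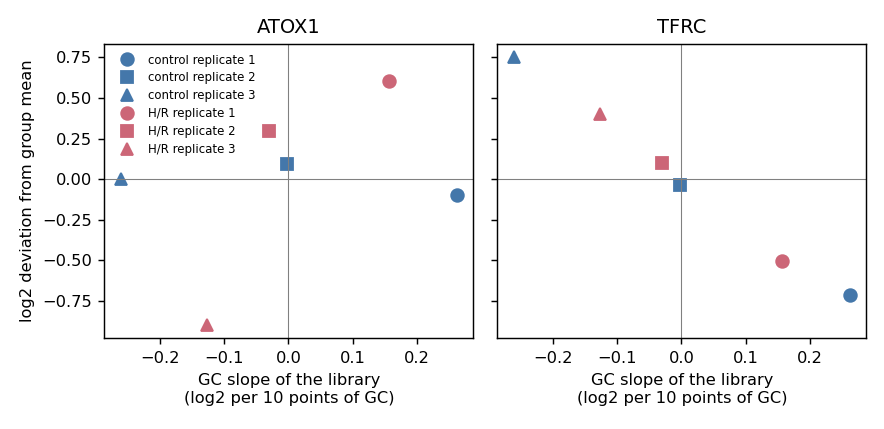
Deviation of ATOX1 (left) and TFRC (right) from the mean of its own group on the log2(FPKM + 1) scale against the GC slope of the library, with 1 point per library, colour for the group and marker shape for the replicate number. TFRC points run from 0.75 at the slope of -0.26 to -0.71 at the slope of 0.26, and ATOX1 points of H/R run from -0.90 to 0.60 while those of control stay within 0.1 of 0.

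The rows with the profile most like each gene were found by the root mean square difference over the 6 samples of log2(FPKM + 1) values taken relative to the control mean. For ATOX1 these were CELF3 (0.38), PLEKHB1 (0.39), AK1 (0.42), PYGO2 (0.42) and MAT1A (0.48). For TFRC they were ARFGAP3 (0.052), RND3 (0.079), ZFC3H1 (0.096), TAX1BP1 (0.097) and AP1S2 (0.10). The nearest row to TFRC was thus much closer than the nearest to ATOX1, in a table that holds many more rows with a change of the size of TFRC than of that of ATOX1. The changes of these rows lay between -2.98 and -2.20 for the first set and between 1.18 and 1.39 for the second.

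Few further copper genes were in the table. Of 53 genes listed for copper handling, 4 were held and tested, of which 3 fell and 1 rose, with a median change of -1.21. Over all rows tested, 52.9% fell, 46.1% rose and the median was -0.80, and 4 genes are too few to set against these shares. None of the 7 genes of copper uptake and reduction, of the 11 of copper delivery to mitochondria or of the 12 of the metallothionein list was held, and the ATPase genes ATP7A and ATP7B, to which ATOX1 delivers, were not held either. CCS had 85.19, 78.94 and 71.24 FPKM in control and 45.26, 38.56 and 35.10 FPKM in H/R, and fell by 0.97 on the log2 scale (limma, adjusted p = 5.96e-04). That call ended under median-of-ratios scaling (difference -0.46, adjusted p = 0.0569, against 1.43e-04 at the lowest over the alternatives). This scaling takes the median row as unchanged, which cannot be known in a table of selected rows, so it cannot settle the call. The copper enzyme genes went both ways. AOC1, the diamine oxidase that breaks down histamine in the gut, fell from 5.30 ± 0.604 to 1.35 ± 0.527 FPKM. LOX, the lysyl oxidase that cross-links collagen, rose from 9.42 ± 3.19 to 30.3 ± 13.3 FPKM, with 17.33, 43.89 and 29.70 FPKM in H/R replicates 1, 2 and 3. LOX is also known as a target of the hypoxia-inducible factors, and it overlaps SRFBP1 in RefSeq.

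Of 65 genes listed for iron handling, 12 were held and tested, of which 9 fell, 2 rose (TFRC and BMP2) and 1 did not pass, with a median change of -1.07. Over all rows tested, 52.9% fell and 46.1% rose, with a median of -0.80. In iron uptake, TFRC rose while TF, which encodes transferrin, the ligand of its product, fell from 2.96 ± 0.442 to 0.993 ± 0.384 FPKM. The TF values of H/R were 0.57, 1.09 and 1.32 FPKM, close to the lowest levels tested, and TF overlaps SRPRB in RefSeq. None of the 6 genes of iron storage or the 3 of iron export was held, so neither ferritin nor ferroportin could be set beside TFRC.

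Of 12 genes of iron regulation, 4 were held. ACO1, which encodes an aconitase that turns into iron regulatory protein 1 when it loses its iron-sulfur cluster, had 53.10, 79.34 and 87.52 FPKM in control and 27.50, 38.18 and 33.12 FPKM in H/R, and fell by 1.11 on the log2 scale (limma, adjusted p = 0.00109). HFE had 15.98, 16.94 and 17.57 FPKM in control and 4.68, 6.09 and 5.78 FPKM in H/R, and fell by 1.46 (adjusted p = 1.52e-04). HFE lies opposite HFE-AS1 in RefSeq, so its reads carry the same doubt about strand as those of ATOX1. For both genes H/R lay below control without overlap, as in 52.0% of all rows tested. TMPRSS6, the liver protease that restrains hepcidin, went from 6.72 ± 0.747 to 0.797 ± 0.336 FPKM, a difference of -2.12 that stood out among the iron genes. Its H/R values of 0.45, 1.12 and 0.82 FPKM were close to the lowest levels tested. The size of its fall depends on the pseudocount, with a difference of -3.00 at 0.1. BMP2, a ligand of the pathway that induces hepcidin, rose from 7.63 ± 1.90 to 28.9 ± 4.36 FPKM, and its H/R values of 25.95, 33.89 and 26.79 FPKM were all far above the control values. H/R lay above control without overlap in 42.6% of all rows tested.

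Of 34 genes listed for iron-sulfur clusters and mitochondrial iron, 6 were held, of which 5 fell and ISCA2 did not pass, in a table where 52.9% of the rows tested fell and 99.0% passed. NFS1, the cysteine desulfurase that supplies the sulfur, had 55.00, 66.18 and 62.35 FPKM in control and 22.88, 18.61 and 18.17 FPKM in H/R, and fell by 1.58 on the log2 scale (limma, adjusted p = 7.72e-05). CISD1, which encodes the outer membrane cluster protein mitoNEET, went from 182.9 ± 30.1 to 74.4 ± 8.98 FPKM, and its relative CISD3 went from 102.4 ± 15.7 to 47.7 ± 16.1 FPKM. CISD3 stands in the table in 2 rows and overlaps PCGF2, so its value is uncertain, and its second row fell too, by 1.28. The mitochondrial transporter gene ABCB8 fell by 1.02 on the log2 scale. Its call ended with libraries rescaled by the median of ratios, at an adjusted p of 0.0506 (2.49e-04 at the lowest over the alternatives). ISCA2, a late-acting assembly gene, had 85.92, 181.12 and 72.59 FPKM in control and 49.48, 114.26 and 46.54 FPKM in H/R, with overlapping groups, a difference of -0.69 ± 0.40 and an adjusted p of 0.113. Both replicates numbered 2 were far above the others of their group for ISCA2, and without H/R replicate 2 or without control replicate 3 the gene passed (adjusted p = 0.0165 and 0.0314, with a range over the alternatives of 6.92e-04 to 0.604).

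**Figure D5:**
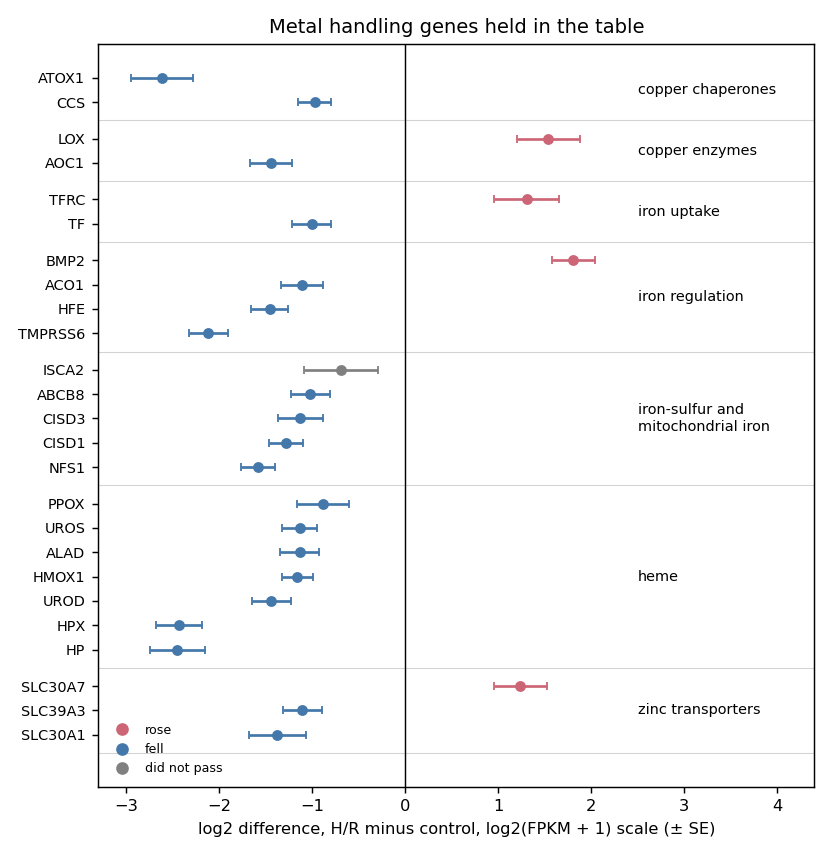
Change after H/R, as a difference of mean log2(FPKM + 1) values with its SE, for 25 held genes of the copper, iron, heme and zinc lists, grouped by role, with red for genes that rose, blue for genes that fell and grey for ISCA2, which did not pass. The 4 rises are LOX, TFRC, BMP2 and SLC30A7, and ATOX1 has the lowest value on this scale. With a pseudocount of 0.1, HP (-3.25), TMPRSS6 (-3.00) and HPX (-2.73) lay below ATOX1 (-2.65).

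Heme genes in the table all fell. Of 20 genes listed, 7 were held and 7 fell (52.9% of all rows tested fell), with a median change of -1.16. The synthesis enzyme genes were ALAD (37.3 ± 7.52 to 16.3 ± 2.45 FPKM), UROS (45.8 ± 5.38 to 20.3 ± 2.29 FPKM), UROD (55.5 ± 9.21 to 19.9 ± 4.13 FPKM) and PPOX (12.2 ± 2.28 to 6.39 ± 2.54 FPKM). They act at the second, the fourth, the fifth and the seventh step of the pathway. The call of PPOX, which overlaps B4GALT3, was lost with median-of-ratios scaling (adjusted p = 0.171), equal totals (0.0775) and the ordinary linear model (0.0551), against 0.0102 in limma and 0.00217 at the lowest over the alternatives. HMOX1, the heme oxygenase that frees iron from heme, had 84.86, 79.21 and 71.45 FPKM in control and 35.45, 34.11 and 34.04 FPKM in H/R, with very little spread after H/R. The plasma scavengers of heme and hemoglobin, HPX and HP, had the largest falls of this list, with log2 differences of -2.43 and -2.45. HPX had 2.10, 4.57 and 3.73 FPKM in H/R against 20.84 to 23.52 FPKM in control. HP had 0.47, 1.47 and 1.17 FPKM in H/R, close to the lowest levels tested, against 6.29 to 12.42 FPKM in control. The size of its fall depends on the pseudocount, with a difference of -3.25 at 0.1. HP is nearly identical to HPR, and how reads shared by both were counted is not stated in those sources.

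Of 22 zinc transporter genes, 3 were held. SLC30A1, the zinc exporter of the plasma membrane and a known target of MTF1, had 19.37, 29.91 and 38.70 FPKM in control and 6.94, 14.05 and 10.99 FPKM in H/R, and fell by 1.37 on the log2 scale (limma, adjusted p = 0.0017). The importer gene SLC39A3 went from 36.5 ± 7.48 to 16.3 ± 2.00 FPKM, a fall. SLC30A7, which loads zinc into the secretory pathway, rose from 2.16 ± 1.22 to 6.07 ± 0.467 FPKM and overlaps DPH5 in RefSeq. Over all 156 genes of these lists, 26 were held and tested, of which 21 fell, 4 rose and 1 did not pass, with a median change of -1.13, beside 52.9% that fell, 46.1% that rose and a median of -0.80 over all rows tested. These counts describe a selected table, and no list was tested against it.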

How the data were processed

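The authors deposited 1 table of log2 values, a row per gene, whose column names point to FPKM. Undoing log2(FPKM + 1) gave multiples of 0.01 FPKM for 100% of the values, within 1e-05 FPKM. The sources used here name no aligner, no counter and no rule by which rows were selected. GRCm38 and mm10, both of mouse, are the builds in the submitters' processing notes, although the symbols are human. The build behind the values is thus unsettled, and printed coordinates belong to the sequences alone. Depth is unknown. Exact copies of a symbol (51 of 2257 rows) were dropped, and 2034 rows with a mean of at least 1 FPKM over the 6 samples were tested with limma 3.58.1 in R 4.3.3 (two-sided, group as the single term, spread moderated along a mean trend, Benjamini-Hochberg adjustment over all rows, threshold 0.05). The model had first been run on simulated data in which most rows were unchanged. That setting differs from this table, so the simulation says nothing about error rates here. The pseudocount of 1 makes changes of low genes look smaller. In lists, a symbol with several rows stood for its most abundant row. Named genes were all held members of the copper and iron lists, all held genes of the zinc list and of the iron-sulfur and heme lists with up to 4 per direction by adjusted p where more than 6 were held, and the 5 rows closest in profile to ATOX1 and to TFRC. UROS, ALAD and PPOX of the heme list were named beyond this rule, after their values were seen. A gene that this rule takes is counted but not reported here. Members and lists were chosen with earlier results of these data known. Alternatives were a pseudocount of 0.1, no minimum level, equal totals, median-of-ratios scaling, quantile normalization, an ordinary linear model, limma without the trend, a replicate block, leaving out each sample, and leaving out both replicates numbered 1 or 3. Copies, list counts and sequence matches were computed with Python and pandas 2.3.3.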

Additional observations from a re-analysis of the deposited data

How the results depend on the processing

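ATOX1 and TFRC kept their direction under the 14 planned and 2 added alternatives. ATOX1 passed in each, with differences from -2.97 to -2.10 on the log2 scale. TFRC passed in each except the ordinary linear model, which leaves the difference at 1.31 and has an adjusted p of 0.0638, and there the count of iron genes that rose went from 2 to 1. Leaving out 1 sample at a time gave -2.92 to -2.17 for ATOX1 and 0.95 to 1.68 for TFRC. The number 3 of H/R decided most for ATOX1 (-2.17 without it) and the numbers 1 and 3 of control for TFRC (0.95 and 1.68). Of the other 24 genes counted, 4 lost their call in at least 1 alternative and none of the 26 changed direction. Median-of-ratios scaling, where calls were lost, takes the median row as unchanged, which cannot be known in a table of rows that look selected. The groups share replicate numbers, and the deviations of same-numbered samples correlated over genes by 0.50, 0.072 and 0.52 (numbers 1, 2 and 3). The main fit did not take the numbers as pairs, because the correlation was not over 0.1 in each. That rule cannot settle whether they were pairs. Number 1 of control with 3 of H/R gave -0.49, and number 3 of control with 1 of H/R gave -0.50. Deviations from a group mean cancel out over the samples of the group. These negative values thus follow in part from the positive ones and say nothing further about pairs. Number 2 lay between the others along GC in both groups (slopes of -0.0016 and -0.031), so its low value says little. Number 2 of H/R was slightly nearer to number 3 of control (0.11). With a replicate block, 946 rows rose and 1082 fell, against 937 and 1076 without it, ATOX1 stayed at -2.62 and TFRC at 1.31 (adjusted p = 8.44e-05), and ISCA2 passed (adjusted p = 6.92e-04). No other rule gene was in the table, so the alternatives planned for them gave no value. Without counts, the depth behind each value cannot be given.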
